A study of Mus musculus with 12 samples.

Results

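The genes of cholesterol and fatty acid synthesis were described across 12 single-channel microarrays of mouse primary macrophages. The set is a list of 37 genes: the sterol-sensing regulators (SREBP factors, Scap and the Insig proteins), the enzymes from acetyl-CoA to cholesterol, a sterol carrier, and the enzymes that make, lengthen and desaturate fatty acids. Of these 37, 34 had a probe set annotated to that gene alone and were measured, among 22180 genes in all. Idi1 and Scd2 were read only by probe sets that carry a second gene symbol, and Acat2 matched no probe set, so these 3 have no value here. The design held 4 groups of 3 arrays: Cd36 knockout (KO) tumour-associated macrophages (TAMs), KO macrophages, wild-type (WT) TAMs and WT macrophages. The TAMs had been cultured for 72 h with 5TGM1, a mouse multiple myeloma line. The labels record no culture time for the macrophages kept alone, so time in culture cannot be told apart from co-culture. They also do not state how Cd36 was knocked out, how the myeloma cells were taken off or whether replicates were separate animals. The p-values below therefore reflect the spread of these 12 samples alone, and that spread may be technical.

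Cells make cholesterol from acetyl-CoA through mevalonate and squalene, and they make fatty acids from the same acetyl-CoA with NADPH as the reductant. Both branches are switched on by the SREBP transcription factors: SREBP-2, from Srebf2, acts mostly on sterol genes and SREBP-1, from Srebf1, mostly on fatty acid genes. Scap carries the SREBP precursors to the Golgi for cleavage, and Insig proteins hold Scap in the endoplasmic reticulum when sterols are plentiful, so that the enzymes tend to be expressed together. Macrophages also receive much cholesterol by uptake, and Cd36 is a receptor for long-chain fatty acids and oxidised lipoproteins.

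All levels below are log2 intensities after the authors' RMA normalization, and the values of a group are given in the order of arrays 1, 2 and 3. A gene was called where limma's Benjamini-Hochberg adjusted p over the 22180 genes was under 0.05, in a fit of 4 group means to all 12 arrays. Differences are given ± the standard error of that fit unless another fit is named. The mean level of the measured members had a median of 7.95, against 5.34 over all genes, and Acacb had the lowest mean level of the members, at 4.10. In bulk samples, fewer cells of a type and less RNA per cell cannot be told apart. Cd36 itself read 8.45, 9.66 and 8.64 on KO TAM arrays, 8.79, 8.63 and 8.78 on KO macrophage arrays, 12.14, 12.53 and 12.29 on WT TAM arrays and 12.10, 12.13 and 12.15 on WT macrophage arrays. The KO arrays were all below the WT arrays in both cultures, at -3.41 ± 0.24 in TAMs and -3.39 ± 0.24 in macrophages (limma, Benjamini-Hochberg adjusted p = 2.45e-05 and 2.05e-05). Xist, the RNA of the inactive X chromosome, averaged 4.12 in KO TAMs and 4.32 in KO macrophages, against 11.18 in both WT groups, so genotype and the sex pattern of expression cannot be told apart. This limit applies to all members, and to all genes outside the list, in the genotype comparisons. Of the members, Nsdhl and Ebp are X-linked, and whether sex bears on their levels was not tested.

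The start regions of a few members are printed because the results turn on how closely the sterol enzymes moved together, and because 2 members with a call in the comparisons stand beside them. Each is the 250 bases before the RefSeq start site in assembly GRCm38.p6, on the strand of the gene, 5′ to 3′. Capitals mark CCAAT on either strand (ATTGG where it lies on the other strand), the box of the factor NF-Y, and in Hmgcs1 also the sterol regulatory element core TCACNCCAC. The region of Hmgcs1, which makes HMG-CoA, lies at chr13:119690101-119690350 on the plus strand, that of Mvk, mevalonate kinase, at chr5:114444019-114444268 on the plus strand, and that of Cyp51, the lanosterol demethylase, at chr5:4104698-4104947 on the minus strand. That of Elovl6, the elongase of palmitate, lies at chr3:129532136-129532385 and that of Acss2, which makes acetyl-CoA from acetate, at chr2:155517793-155518042, both on the plus strand.
Hmgcs1: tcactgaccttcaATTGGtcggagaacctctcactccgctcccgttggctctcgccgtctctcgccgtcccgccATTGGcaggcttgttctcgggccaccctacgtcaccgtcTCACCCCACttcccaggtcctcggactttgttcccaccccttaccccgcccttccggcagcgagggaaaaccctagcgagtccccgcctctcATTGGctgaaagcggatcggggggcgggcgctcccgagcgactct
Mvk: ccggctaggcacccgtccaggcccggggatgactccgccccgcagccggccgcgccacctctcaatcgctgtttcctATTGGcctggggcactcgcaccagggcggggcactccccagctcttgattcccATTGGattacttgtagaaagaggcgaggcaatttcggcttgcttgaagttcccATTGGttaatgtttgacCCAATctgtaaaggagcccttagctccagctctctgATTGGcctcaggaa
Cyp51: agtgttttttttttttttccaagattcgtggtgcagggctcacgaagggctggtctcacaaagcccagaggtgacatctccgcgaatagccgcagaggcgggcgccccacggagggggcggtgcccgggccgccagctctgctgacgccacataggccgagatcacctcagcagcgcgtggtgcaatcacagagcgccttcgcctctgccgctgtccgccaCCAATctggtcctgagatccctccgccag
Elovl6: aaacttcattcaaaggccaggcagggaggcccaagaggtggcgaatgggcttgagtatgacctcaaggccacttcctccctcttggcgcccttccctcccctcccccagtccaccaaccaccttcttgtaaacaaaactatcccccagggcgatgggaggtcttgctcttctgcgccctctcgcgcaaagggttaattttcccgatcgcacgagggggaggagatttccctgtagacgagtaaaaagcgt
Acss2: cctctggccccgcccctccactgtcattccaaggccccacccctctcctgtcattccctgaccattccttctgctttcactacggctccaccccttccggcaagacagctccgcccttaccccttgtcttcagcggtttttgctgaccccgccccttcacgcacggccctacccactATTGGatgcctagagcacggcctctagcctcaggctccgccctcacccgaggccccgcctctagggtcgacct

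Of the 3 motifs searched, the CCAAT box was present in the most sterol enzymes, closely followed by the Sp1 box. Of the 34 measured members, 28 had a start region in the RefSeq table, 13 of them sterol enzymes. CCAAT, searched on both strands, was present in 13 of 13 sterol enzymes (100%) and in 23 of 28 members (82.1%), against 37.5% of the 27025 genes in the table. The Sp1 box GGGCGG, searched on both strands, was present in 12 of 13 sterol enzymes (92.3%) and 22 of 28 members (78.6%), against 35.4% of genes. Counted over the 16 start regions of these sterol enzymes, each of the CCAAT and Sp1 boxes was present in 13 (81.2%). The element core TCACNCCAC was found in 1 of 28 members (3.57%), against 1.22% of genes: it lay in Hmgcs1, with its first base at position -137 from the start site. The Mvk region held 5 CCAAT boxes and that of Hmgcs1 held 3, while the Elovl6 region held none of the 3 motifs. Each motif was counted on its own, whether or not its matches overlapped those of another. A match is a description of the letters, and no match says only that these letters are not in this window.

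The clearest pattern in the members was between arrays of 1 group. Macrophages cultured alone gave nearly the same values on all 3 arrays, whereas TAM arrays of the same group lay far apart. The median SD of the 34 members was 0.58 in KO TAMs, against 0.05 in KO macrophages, and 0.79 in WT TAMs, against 0.05 in WT macrophages. Over all genes the median SD was 0.14 in KO TAMs, against 0.10 in KO macrophages, and 0.14 in WT TAMs, against 0.10 in WT macrophages. An SD over 0.5 was found for 21 of 34 members in KO TAMs (61.8%) and for 22 of 34 in WT TAMs (64.7%), against 4.23% and 3.22% of all genes in those groups. No member reached that SD in either macrophage group. The SD was larger in TAMs than in macrophages for 32 of 34 members in KO cells and for 31 of 34 in WT cells, with a median ratio of 11.2 in KO and 12.7 in WT.

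**Figure D1:**
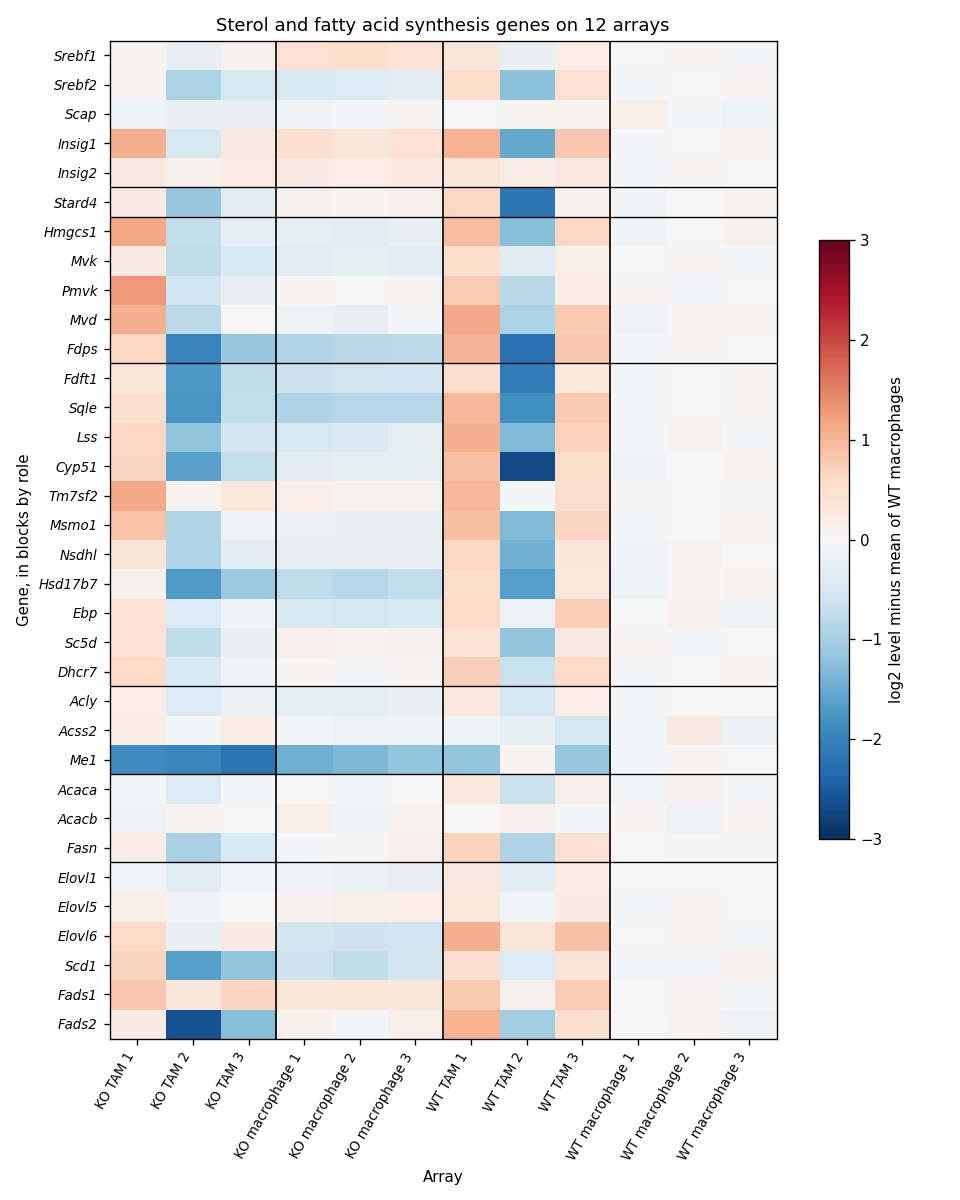
Level of each of the 34 measured members (rows, in blocks by role) on each of the 12 arrays (columns), as the log2 difference from the mean of the WT macrophage arrays. Red is higher and blue lower, and the deepest blue columns are WT TAM 2 and KO TAM 2 while WT TAM 1, WT TAM 3 and KO TAM 1 are red for most sterol enzymes.

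The TAM arrays also fell in a common order. WT TAM 2 was the lowest of its group for 30 of 34 members (88.2%), against 39.2% of all genes. It was the lowest of all 12 arrays for 18 of 34 members (52.9%), against 12.7% of all genes. It lay more than 1 log2 unit below the mean of WT TAM 1 and 3 for 18 of 34 members (52.9%), against 0.541% of all genes. In the KO TAMs, array 1 lay more than 1 unit above the mean of arrays 2 and 3 for 14 of 34 members (41.2%), against 1.49% of all genes. KO TAM 2 lay more than 1 unit below the mean of arrays 1 and 3 for 14 of 34 members, against 0.194% of all genes. From high to low, the order array 1, array 3, array 2 held in both TAM groups for 28 of 34 members, 15 of the 16 sterol enzymes among them. The share of all genes in this order was not counted. Scap, Acss2, Me1 and Acacb followed this order in neither group. WT TAM 1 lay more than 1 unit above the mean of WT TAM 2 and 3 for 14 of 34 members (41.2%), against 0.149% of all genes. The labels do not set any TAM array apart. The co-culture and TAM results are given with and without WT TAM 2 and KO TAM 1. WT TAM 1 and KO TAM 2 also stood apart for these members, but were left out only 1 at a time.

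The regulators came first in the pathway and differed in how far they followed this pattern. Srebf2, the sterol-directed SREBP factor, read 9.50, 8.46 and 8.92 on KO TAM arrays, 8.95, 8.99 and 9.08 on KO macrophage arrays, 9.93, 8.17 and 9.86 on WT TAM arrays and 9.36, 9.40 and 9.46 on WT macrophage arrays. Its macrophage values were tight within each genotype, and WT TAM 2 was lowest of all 12 arrays. Insig1, which retains Scap and is itself an SREBP target, read 11.13, 9.59 and 10.33 on KO TAM arrays, 10.55, 10.40 and 10.50 on KO macrophage arrays, 11.11, 8.53 and 10.88 on WT TAM arrays and 10.03, 10.07 and 10.12 on WT macrophage arrays. Here the TAM arrays spanned both sides of the macrophage arrays in each genotype. Srebf1, the fatty acid directed factor, read 7.26, 6.92 and 7.30 on KO TAM arrays, 7.63, 7.69 and 7.58 on KO macrophage arrays, 7.52, 6.94 and 7.38 on WT TAM arrays and 7.16, 7.21 and 7.14 on WT macrophage arrays. Its KO macrophage arrays were the highest of all 12 and did not overlap any other group.

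Insig2, the Insig form that is not a classical SREBP target, behaved unlike Insig1. It read 7.27, 7.12 and 7.23 on KO TAM arrays, 7.25, 7.20 and 7.30 on KO macrophage arrays, 7.36, 7.23 and 7.28 on WT TAM arrays and 6.96, 7.03 and 6.99 on WT macrophage arrays. The WT macrophage arrays were lowest and apart from the other 3 groups, which overlapped each other. Scap read between 7.54 and 7.96 on all 12 arrays, with SDs of 0.05 in KO TAMs and 0.03 in WT TAMs. A second probe set of Scap with a mean level of 4.97 gave the opposite sign in both genotype comparisons, so no direction is given for Scap. Stard4, a carrier that moves cholesterol between membranes, read 8.13, 6.72 and 7.51 on KO TAM arrays, 7.98, 7.91 and 8.0 on KO macrophage arrays, 8.47, 5.67 and 7.99 on WT TAM arrays and 7.75, 7.84 and 7.96 on WT macrophage arrays. On WT TAM 2 it was 6.96-fold lower than on WT TAM 1.

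The enzymes of the early, mevalonate steps moved as a block. Hmgcs1 read 11.75, 9.85 and 10.32 on KO TAM arrays, 10.33, 10.29 and 10.38 on KO macrophage arrays, 11.52, 9.32 and 11.22 on WT TAM arrays and 10.47, 10.60 and 10.72 on WT macrophage arrays. Its highest and its lowest arrays were both TAM arrays, and the KO and WT macrophage arrays did not overlap. Fdps, farnesyl diphosphate synthase, read 9.39, 6.76 and 7.63 on KO TAM arrays, 7.87, 7.93 and 7.95 on KO macrophage arrays, 9.78, 6.53 and 9.57 on WT TAM arrays and 8.73, 8.79 and 8.78 on WT macrophage arrays. The highest WT TAM array was 9.51-fold above the lowest, while the WT macrophage arrays spanned 0.06 log2 units. Mvk, Pmvk and Mvd, the kinases and the decarboxylase between mevalonate and isopentenyl diphosphate, spanned 1.02, 1.91 and 1.87 units within KO TAMs and 0.89, 1.58 and 2.10 units within WT TAMs.

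The squalene-to-cholesterol enzymes showed the same split. Sqle, squalene epoxidase, a rate-controlling step, read 9.75, 7.52 and 8.52 on KO TAM arrays, 8.33, 8.40 and 8.40 on KO macrophage arrays, 10.25, 7.41 and 10.04 on WT TAM arrays and 9.21, 9.27 and 9.28 on WT macrophage arrays. KO macrophage arrays were all below WT macrophage arrays, and TAM arrays of each genotype lay on both sides of their macrophages. Cyp51 read 9.91, 7.67 and 8.56 on KO TAM arrays, 8.96, 9.01 and 9.01 on KO macrophage arrays, 10.16, 6.56 and 9.83 on WT TAM arrays and 9.16, 9.29 and 9.38 on WT macrophage arrays. WT TAM 2 lay 12.1-fold below WT TAM 1, the widest range of any member within a group. The other 9 enzymes of these steps (Fdft1, Lss, Tm7sf2, Msmo1, Nsdhl, Hsd17b7, Ebp, Sc5d and Dhcr7) spanned between 0.87 (Ebp) and 2.08 (Fdft1) units within KO TAMs and between 0.89 (Ebp) and 2.59 (Fdft1) units within WT TAMs. Over the 16 sterol enzymes the mean level was 9.29, 7.62 and 8.22 on KO TAM arrays, 8.31, 8.29 and 8.34 on KO macrophage arrays, 9.42, 7.38 and 9.15 on WT TAM arrays and 8.58, 8.66 and 8.65 on WT macrophage arrays.

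**Figure D2:**
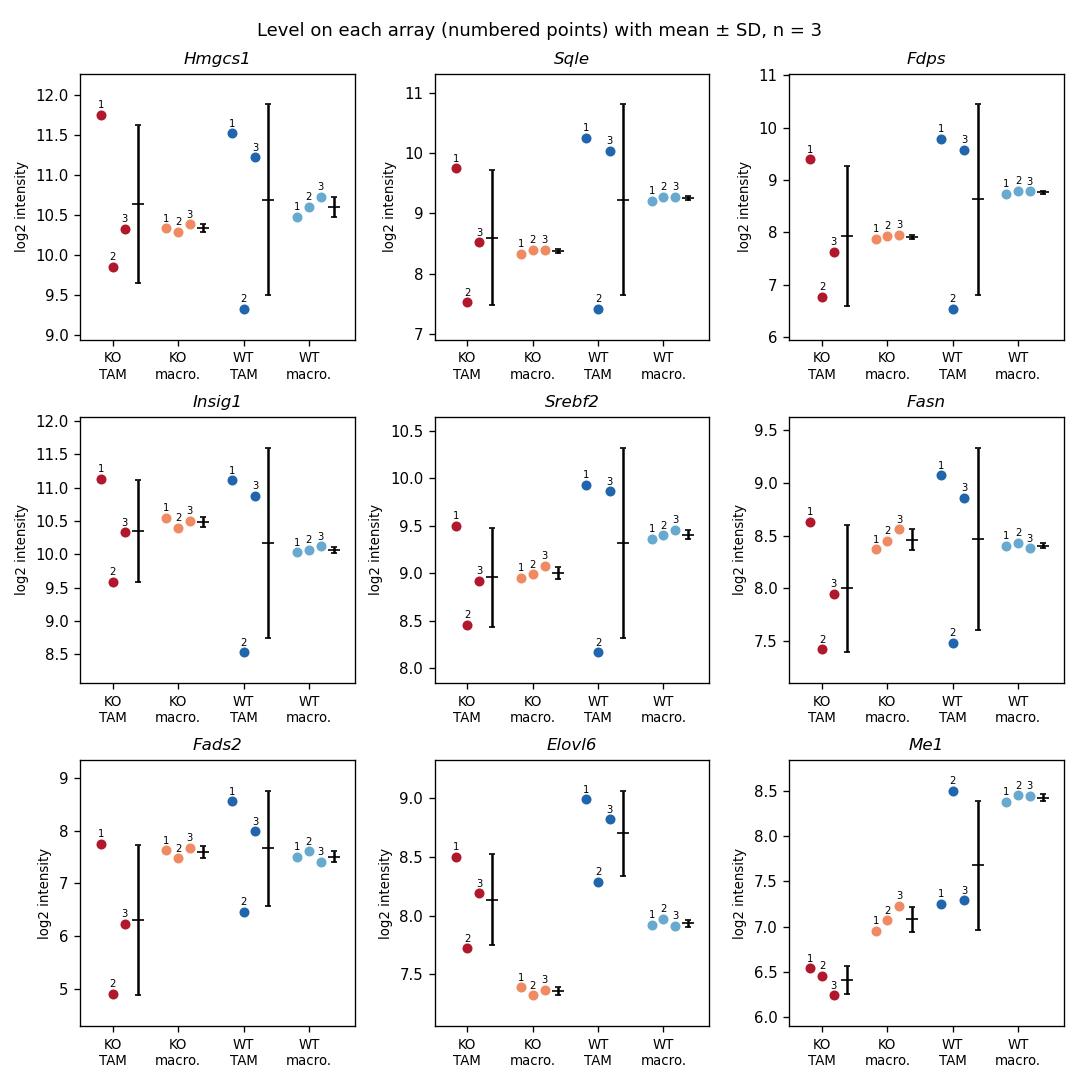
Log2 intensity of 9 members whose values are given in full, with 1 panel a gene, numbered points for arrays 1, 2 and 3 of each group and bars for the mean ± SD (n = 3). The sterol enzymes show the wide TAM and narrow macrophage spread, and Me1 shows KO arrays below all WT arrays.

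On the fatty acid side the same TAM split appeared in synthesis and desaturation. Fasn, fatty acid synthase, read 8.63, 7.42 and 7.95 on KO TAM arrays, 8.37, 8.45 and 8.56 on KO macrophage arrays, 9.07, 7.48 and 8.86 on WT TAM arrays and 8.40, 8.43 and 8.38 on WT macrophage arrays. WT TAM 2 and KO TAM 2 were the lowest of their groups and lay below every macrophage array. Scd1, the desaturase that makes oleate and palmitoleate, read 6.15, 3.83 and 4.29 on KO TAM arrays, 4.86, 4.73 and 4.94 on KO macrophage arrays, 5.99, 5.07 and 5.89 on WT TAM arrays and 5.41, 5.41 and 5.62 on WT macrophage arrays. Its KO TAM arrays spanned 2.32 units, and its KO macrophage arrays lay below the WT macrophage arrays. Fads2, the desaturase that opens the polyunsaturated fatty acid pathway, read 7.75, 4.90 and 6.24 on KO TAM arrays, 7.63, 7.48 and 7.68 on KO macrophage arrays, 8.56, 6.46 and 7.99 on WT TAM arrays and 7.51, 7.61 and 7.41 on WT macrophage arrays. Within KO TAMs the highest array was 7.21-fold above the lowest, and 2 of the 3 KO TAM arrays lay below every other array. The SD of Fads2 in KO TAMs, 1.43, was the largest of any member there, and that of Scd1 was 1.23, against a median of 0.93 for the 16 sterol enzymes in KO TAMs. Scd1 was dim, with a mean level of 5.18 against a median of 5.34 over all genes. Its values on KO TAM 2 and 3 lay near those of Acacb (3.92 to 4.26), which limits what its spread and differences can show.

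The elongases and the acetyl-CoA enzymes varied less among arrays. Elovl6 read 8.50, 7.72 and 8.19 on KO TAM arrays, 7.39, 7.32 and 7.37 on KO macrophage arrays, 8.99, 8.29 and 8.82 on WT TAM arrays and 7.92, 7.97 and 7.91 on WT macrophage arrays. TAM arrays were above macrophage arrays without overlap in each genotype. Fads1, which acts after Fads2, read 10.10, 9.62 and 9.93 on KO TAM arrays, 9.64, 9.66 and 9.63 on KO macrophage arrays, 10.07, 9.41 and 10.06 on WT TAM arrays and 9.29, 9.32 and 9.26 on WT macrophage arrays. The WT TAM arrays were all above the WT macrophage arrays. Elovl1 and Elovl5, elongases of saturated and of polyunsaturated chains, spanned at most 0.60 and 0.41 units within any group. Acly, which makes acetyl-CoA from citrate, spanned 0.62 units within KO TAMs and 0.81 within WT TAMs, and Acaca, which makes malonyl-CoA, spanned 0.35 and 0.94. Acacb stayed between 3.92 and 4.26 on all 12 arrays.

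Me1 and Acss2 did not follow the order of the other TAM arrays, as Scap and Acacb did not. Me1, the malic enzyme that supplies cytosolic NADPH, read 6.54, 6.46 and 6.24 on KO TAM arrays, 6.95, 7.07 and 7.23 on KO macrophage arrays, 7.25, 8.50 and 7.29 on WT TAM arrays and 8.38, 8.45 and 8.44 on WT macrophage arrays. KO arrays lay below WT arrays in both cultures without overlap, and WT TAM 2 was the highest of its group where it was the lowest for most other members. Acss2 read 7.35, 7.11 and 7.35 on KO TAM arrays, 7.06, 6.96 and 6.99 on KO macrophage arrays, 6.98, 6.87 and 6.60 on WT TAM arrays and 7.05, 7.42 and 6.95 on WT macrophage arrays. KO TAM arrays lay above all WT TAM arrays, while the macrophage arrays of both genotypes overlapped.

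How far each member followed the sterol enzymes was measured by the correlation of its deviations from the 4 group means with the mean deviation of the sterol enzymes, over the 12 arrays and with the gene itself left out. This is a description: the points share arrays, and most of the deviation comes from the 6 TAM arrays. It was over 0.9 for 27 of 34 members (79.4%), against 1.65% of all genes. All 16 sterol enzymes were among them, from 0.93 for Tm7sf2 to 0.998 for Msmo1. Members below 0.9 were Srebf1 (0.88), Scd1 (0.85), Insig2 (0.76), Acss2 (0.14), Scap (0.13), Acacb (-0.57) and Me1 (-0.70).

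**Figure D3:**
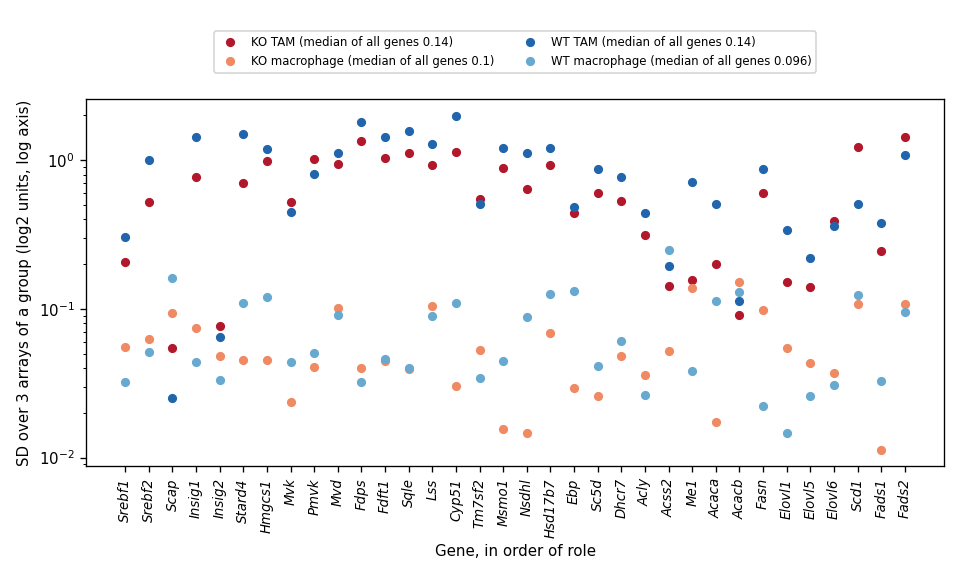
SD over the 3 arrays of a group (vertical log axis, log2 units) for each of the 34 members (horizontal, in order of role), with a point for each group and the median over all genes in the legend. TAM points lie above macrophage points for nearly all sterol enzymes, with a median SD of the 16 enzymes of 0.93 in KO TAMs against 0.04 in KO macrophages, and 1.16 in WT TAMs against 0.06 in WT macrophages.

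Few members were called higher in TAMs than in macrophages of either genotype in the fit to all arrays. In KO cells 1 of 34 members was called higher in TAMs and 0 lower, where 2.9% and 3.63% of all genes were. In WT cells 3 of 34 were called higher and 0 lower, where 5.89% and 5.66% of all genes were. The share of members called was thus near the background. The median difference of the members was -0.04 in KO cells, against -0.01 over all genes, and 0.06 in WT cells, against 0.01. At an unadjusted limma p under 0.05, 2005 of the 22180 genes were higher in KO TAMs and 2452 lower. In WT TAMs these were 2743 and 2464. None of the 16 sterol enzymes was called in limma's test in either genotype, and 0 of them had an unadjusted p under 0.05. Their interval was wide: Sqle differed by 0.22 ± 0.65 in KO cells (95% interval -1.20 to 1.64) and by -0.03 ± 0.65 in WT cells (-1.45 to 1.40). With this spread between TAM arrays, a difference of that size was not detectable.

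Elovl6 was the member called in both genotypes. It rose by 0.78 ± 0.19 in KO TAMs (1.72-fold, adjusted p = 0.0316, limma) and by 0.77 ± 0.19 in WT TAMs (1.70-fold, adjusted p = 0.0221). The call held in 10 of 16 alternatives in KO cells, with adjusted p up to 0.103 without KO macrophage 2, and in 11 of 16 in WT cells, with adjusted p up to 0.0899 without WT TAM 1. In KO cells it was also lost without KO TAM 1, KO TAM 3, KO macrophage 1 or KO macrophage 3, and in the fit to 6 arrays. Fads1 rose by 0.56 ± 0.16 in WT TAMs (adjusted p = 0.0484, limma) and Insig2 by 0.30 ± 0.08 (adjusted p = 0.0271). Each of these held in 10 of 16 alternatives, and without WT TAM 1 the adjusted p was 0.167 for Fads1 and 0.0984 for Insig2. Dropping any 1 WT macrophage array, or WT TAM 3, also ended both calls and that of Elovl6 in WT cells, and the fit to 6 arrays ended those of Fads1 and Insig2. In KO TAMs Fads1 differed by 0.24 ± 0.16 and Insig2 by -0.04 ± 0.08, and neither was called.

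The count of members depended on 2 arrays. WT TAM 2 and KO TAM 1 lay more than 1 unit above or below the mean of the other 2 arrays of their group for the largest share of all genes in it (1.33% above and 0.541% below for WT TAM 2, 1.49% above and 0.987% below for KO TAM 1). They are also extreme arrays for these members, so the direction of what follows was set in part by leaving them out. Without them, 1 of 34 members was called higher and 9 lower in KO TAMs. Of the 22180 genes, 952 were called higher and 1195 lower there (9.68% in either direction). In WT TAMs 19 members were called higher and 1 lower (Me1), and the median of the members was 0.48. Of the 22180 genes, 2232 were called higher and 1817 lower there (18.3% in either direction). The 19 members called higher included 11 of the 16 sterol enzymes, with differences between 0.49 (Pmvk) and 0.96 (Mvd). The 9 members called lower in KO TAMs included Fads2 at -2.02, Cyp51 at -0.88, Fasn at -0.78 and Scd1 at -0.78. Fitted to only the 6 arrays of its own comparison, the KO contrast called Me1 alone, at -0.67 ± 0.12 (adjusted p = 0.0362, limma, with 1.22% of all genes called lower), and the WT contrast called Elovl6 alone, as higher (5.83% of all genes).

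Between macrophages cultured alone, the knockout went with lower levels of many sterol enzymes. The KO macrophage arrays lay below the WT macrophage arrays without overlap for 17 of 34 members and above them for 7, where 17.7% and 20.8% of all genes did so. Sterol enzymes made up 11 of the 17 and 2 of the 7. In the fit to all 12 arrays only Me1 was called, lower by 2.53-fold (-1.34 ± 0.26, adjusted p = 0.0061, limma). That is 0 members higher and 1 lower, where 5.19% and 6.13% of all genes were called. The call of Me1 held in all 16 alternatives run, with adjusted p up to 0.0297 without KO macrophage 1.

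That fit takes its spread from the TAM arrays too, and these varied far more for the sterol enzymes. Fitted to the 6 macrophage arrays alone, 15 of 34 members were called lower and 4 higher, where 11.2% of all genes were called lower and 10.1% higher. Sqle was lower by 0.88 ± 0.06 log2 units (adjusted p = 0.000133, limma) and Fdps by 0.85 ± 0.06 (adjusted p = 0.000146). Hsd17b7 (-0.78), Fdft1 (-0.58), Ebp (-0.47), Lss (-0.39), Mvk (-0.32), Cyp51 (-0.29), Nsdhl (-0.24) and Msmo1 (-0.23) were also called, making 10 of 16 sterol enzymes. Srebf2 was lower by 0.40 with them. Outside the sterol branch, Scd1 (-0.64), Elovl6 (-0.58) and Acly (-0.26) were called lower beside Me1.

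The 4 members called higher in KO macrophages by the fit to 6 arrays were Srebf1 (0.46 ± 0.06, adjusted p = 0.00227, limma), Insig1 (0.41 ± 0.07, adjusted p = 0.00513), Fads1 (0.35 ± 0.06, adjusted p = 0.00515) and Insig2 (0.25 ± 0.06, adjusted p = 0.0258). The SREBP factors thus differed in sign, with Srebf1 higher and Srebf2 lower. Members called in neither fit included Hmgcs1 (-0.26), Pmvk (0.06), Mvd (-0.15), Tm7sf2 (0.13), Sc5d (0.12), Dhcr7 (0.03) and Stard4 (0.12) on the sterol side, and Fasn (0.06), Acaca (-0.01) and Fads2 (0.09) on the fatty acid side. In the fit to all arrays Sqle had an adjusted p of 0.455 and Fdps of 0.545, with the same differences.

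**Figure D4:**
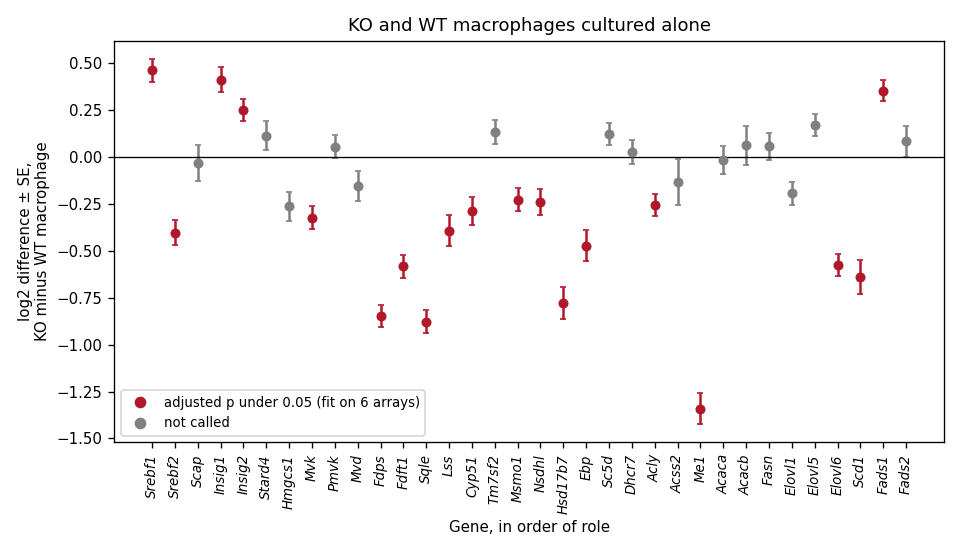
Log2 difference between KO and WT macrophages cultured alone, KO minus WT, for each of the 34 members in order of role, with the standard error of the fit to those 6 arrays (3 KO and 3 WT). Red points are called in that fit, 15 below 0 and 4 above, with Me1 lowest at -1.34.

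Between TAMs, Me1 was again lower in KO cells, and the sterol enzymes were not called in the fit to all 12 arrays. Me1 differed by -1.26 ± 0.26 in KO TAMs against WT TAMs (adjusted p = 0.00775, limma) and held in 15 of 16 alternatives, with an adjusted p of 0.0879 in the fit to only those 6 arrays. Acss2 was higher by 0.45 ± 0.13 (adjusted p = 0.0477) and held in 6 of 16, with an adjusted p of 0.167 without WT TAM 3. The call of Acss2 was also lost without WT TAM 2 or any 1 KO TAM array, and under median centring (adjusted p = 0.0846), array weights (0.105) and the replicate block (0.0611). The blocked fit called Elovl6 lower instead (-0.56, adjusted p = 0.0436, limma). Thus 1 member was called higher and 1 lower, where 5.03% and 7.19% of all genes were. The fit to those 6 arrays called 0 members (and 2.88% of all genes). Fads2 differed by -1.37 ± 0.61 (adjusted p = 0.182), Scd1 by -0.89 ± 0.45 (adjusted p = 0.25) and Sqle by -0.63 ± 0.65 (adjusted p = 0.618). Without WT TAM 2 and KO TAM 1, 28 of 34 members were called lower in KO TAMs and 0 higher, where 11.8% and 8.43% of all genes were, and the median was -0.96. Since those arrays are the lowest WT and the highest KO array for most members, leaving both out pulls the groups apart. Dropping 1 array alone also changed the calls, most of all for those same 2 arrays. Leaving out either of them pulls the groups apart in the same way. Without WT TAM 2, 9 members were called lower and 0 higher (12.2% of all genes called in either direction), Sqle (-1.54, adjusted p = 0.0471), Hsd17b7 (-1.31) and Ebp (-0.68) among them. Without KO TAM 1, 5 were called lower and 0 higher (16.7% of all genes), Mvk (-0.73) and Fads2 (-2.10) among them. Array weights keep all 12 arrays and give less weight to those that vary most. With them, 20 members were called lower and 0 higher (21.3% of all genes). Sqle was then at -1.91 (adjusted p = 0.0102, limma) and Fdps at -2.14 (adjusted p = 0.0107). Less weight on WT TAM 2 or KO TAM 1 also pulls the groups apart, and the weight each array got is not given here.

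No member showed a tested difference between genotypes in its co-culture response. The interaction called 0 of 34 members in limma, where 0.194% of all genes were called. At an unadjusted limma p under 0.05 there were 924 genes above 0 and 1206 below among the 22180. Of the members, 1 above 0 and 2 below had such a p, a share near that of all genes. These were Acss2 (0.59 ± 0.19, adjusted p = 0.317), Srebf1 (-0.58 ± 0.20, adjusted p = 0.349) and Insig2 (-0.34 ± 0.11, adjusted p = 0.309). Without WT TAM 2 and KO TAM 1, 21 members were called below 0 and 0 above, where 3.78% of all genes were called below 0, and the choice of arrays bears on this in the same way.

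Other lipid synthesis genes that are no members gave a different picture. Of 35 such genes on a list, 28 were measured, and their median SD was 0.16 in KO TAMs and 0.17 in WT TAMs. The share of them called in either direction was 7.14% in KO TAMs against KO macrophages (6.53% of all genes), 25% in WT TAMs against WT macrophages (11.5%), 25% in KO against WT macrophages (11.3%) and 10.7% in KO against WT TAMs (12.2%). Only Aacs (0.98), Lbr (0.95) and Tecr (0.91) followed the sterol enzymes over the arrays with a correlation over 0.9. Aacs makes acetoacetyl-CoA, Lbr carries a sterol reductase and Tecr acts in chain elongation. In KO TAMs against KO macrophages 0 were called higher and 2 lower, Acsl4 (-0.43) and Acsl5 (-0.59), both acyl-CoA synthetases. In WT TAMs against WT macrophages 4 were called higher, Fads3 (1.22), Lpin1 (0.65), Erlin2 (0.35) and Ggps1 (0.27), and 3 lower, Acsl5 (-1.12), Acsl4 (-0.45) and Agpat2 (-0.35). In KO against WT macrophages 4 were called higher, Scd4 (0.56), Mbtps2 (0.41), Acsl4 (0.37) and Ggps1 (0.28), and 3 lower, Fads3 (-1.23), Hacd1 (-0.85) and Erlin1 (-0.47). In KO against WT TAMs Acsl4 (0.40) was called higher, and Fads3 (-1.66) and Hacd1 (-0.91) lower.

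On the sterol export side, 10 of 12 listed genes of the LXR pathway and of cholesterol handling were measured. Of these, 4 of 10 were called in KO TAMs against KO macrophages and 4 of 10 in WT TAMs against WT macrophages (40% each, against 6.53% and 11.5% of all genes). Between genotypes 2 of 10 were called in TAMs and 2 of 10 in macrophages (20% each, against 12.2% and 11.3%). LXR is the receptor that senses sterol excess, and its targets Abcg1, a cholesterol exporter, and Mylip, which marks the LDL receptor for degradation, ran against the sterol enzymes over the arrays, with correlations of -0.90 and -0.89. Mylip read 9.26, 9.89 and 9.70 on KO TAM arrays, 9.33, 9.24 and 9.32 on KO macrophage arrays, 8.54, 10.36 and 8.13 on WT TAM arrays and 8.32, 8.46 and 8.25 on WT macrophage arrays. WT TAM 2, the lowest array for most sterol enzymes, was the highest of all 12 for Mylip. Abcg1 read 9.33, 9.88 and 9.81 on KO TAM arrays, 9.64, 9.63 and 9.67 on KO macrophage arrays, 8.19, 9.62 and 7.89 on WT TAM arrays and 8.91, 8.98 and 8.92 on WT macrophage arrays. Abca1, another LXR target, had a correlation of only -0.24. Abcg1 and Mylip had the lowest correlations of the 10 genes, whose median was 0.19. Nr1h3 (-0.44) and Npc1 (-0.006) were also below 0. Cyp27a1 (0.74), Nceh1 (0.71), Npc2 (0.67), Lpcat3 (0.66) and Ch25h (0.39) went with the sterol enzymes, so the list as a whole did not run against them. Npc1 and Npc2, which move cholesterol out of lysosomes, and Nceh1, a cholesterol ester hydrolase, were called higher in TAMs of both genotypes: by 0.68, 0.52 and 0.54 in KO cells and by 1.27, 0.65 and 1.05 in WT cells. Cyp27a1, the sterol 27-hydroxylase, was also called higher in KO TAMs (0.99), and Lpcat3, a phospholipid remodelling enzyme, lower in WT TAMs (-0.42). Ch25h, the cholesterol 25-hydroxylase, was called lower in KO than in WT cells (-1.17 in TAMs, -0.93 in macrophages), while Cyp27a1 (0.90, TAMs) and Nceh1 (0.27, macrophages) were called higher.

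Marker levels of other cells moved with some of these results. The summed level of 11 proliferation genes, as a mean per gene, was 7.13, 7.30 and 6.80 on KO TAM arrays, 7.40, 7.46 and 7.43 on KO macrophage arrays, 9.05, 8.37 and 9.30 on WT TAM arrays and 8.55, 8.63 and 8.57 on WT macrophage arrays. In KO against WT cells, 11 of 11 were called lower in TAMs and 9 of 11 in macrophages. The 12 fibroblast and stromal markers averaged 6.69, 6.38 and 5.69 on KO TAM arrays, 5.33, 5.37 and 5.27 on KO macrophage arrays, 7.02, 8.07 and 7.10 on WT TAM arrays and 6.80, 6.77 and 6.67 on WT macrophage arrays. WT TAM 2, the lowest array for the sterol enzymes, was highest in these markers. Among the KO TAMs, array 1 was highest both for the sterol enzymes (9.29) and for these markers (6.69). Of the 12 markers, 7 were called lower in KO TAMs than in WT TAMs and 5 in KO than in WT macrophages. The part of these markers in the results was not tested. The 8 macrophage markers averaged between 11.48 and 12.02 on all arrays, the 10 plasma cell markers between 5.73 and 6.04, the 4 endothelial markers between 5.46 and 5.94 and the 4 measured adipocyte markers between 4.05 and 4.36. Single markers moved in opposite directions under these averages. Of the macrophage markers, 4 were called higher and 1 lower in KO TAMs against KO macrophages, and 2 higher and 2 lower in WT TAMs against WT macrophages. Pecam1, an endothelial marker also found on leukocytes, fell in KO TAMs (-1.39) and in WT TAMs (-2.38), Kdr rose in WT TAMs (2.0), and Cd79b, of the B lineage, fell in WT TAMs (-1.82). In KO against WT TAMs, Mertk (0.52), Pecam1 (1.71), Cd79b (1.5) and Slamf7 (0.38) were called higher and Kdr (-1.27) lower. In KO against WT macrophages, Mertk (0.85) was called higher and Fcgr1 (-1.0) and Sdc1 (-1.19) lower.

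**Figure D5:**
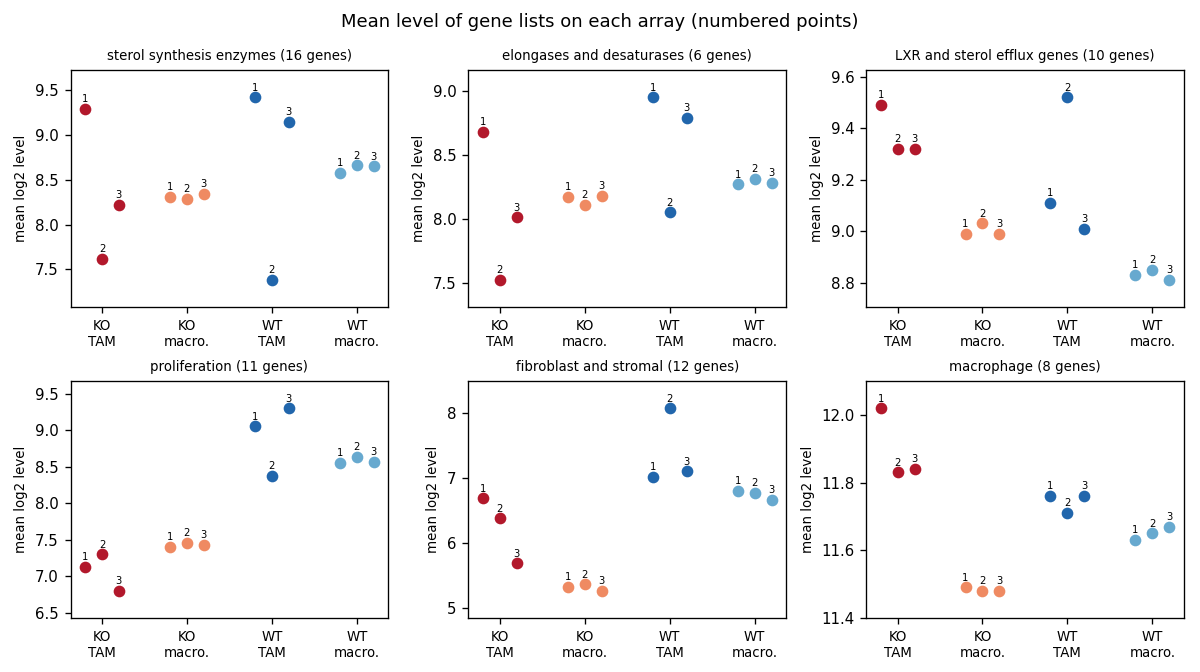
Mean log2 level of 6 gene lists on each array, with numbered points for the arrays of each group. The sterol enzymes fall to 7.38 on WT TAM 2, where the stromal markers reach 8.07. Among the KO TAMs, array 1 is highest on both lists (9.29 and 6.69). The macrophage markers stay between 11.48 and 12.02.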

How the data were processed

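Total RNA of 12 samples of mouse primary macrophages was labelled with biotin and read on single-channel arrays, per the labels. The authors deposited 1 table of intensity values for 41345 probe sets, made with RMA per the submitters' processing notes, which also name limma; no versions are given there. RMA normalizes by quantiles, which removes any change common to most genes. The number of arrays limits the precision, and the array median intensity lay between 31.3 and 33.3. Groups came from the sample titles.

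The log2 of the deposited intensity was taken without a pseudocount. Of the probe sets, 23521 had 1 gene symbol, 1814 several and 16010 none, and only the first were used. Where a gene had several (1082 genes), the one with the highest mean was kept. The tests used limma 3.58.1 under R 4.3.3 (lmFit and eBayes, 4 group means, 12 arrays, 8 residual degrees of freedom) for 5 comparisons over 22180 genes; the script was tested on simulated data. TAM arrays varied more, so this common spread can make p too small between TAMs and too large between macrophages. Each array was compared with the mean of the other 2 of its group. Alternatives were other scaling, an added 16, a filter at a mean of 5, mean probe sets, trend and robust settings, array weights, only the 6 arrays compared, the replicate block, and arrays left out.

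The members, the lists and the arrays left out together were chosen with earlier results of these data known. Array values are given for members with a call and for Srebf1, Srebf2, Insig1, Hmgcs1, Sqle, Fasn and Scd1; those of Stard4, Fdps, Cyp51 and Fads2 and of the genes outside the list, and the printed start regions of Hmgcs1, Mvk and Cyp51, were chosen after values were seen. Start regions came from RefSeq (GRCm38.p6).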

Additional observations from a re-analysis of the deposited data

How the results depend on the processing

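The number of members called depended most on how the spread was estimated and on WT TAM 2 and KO TAM 1. The share of all genes called at the same setting is in brackets. Against 3 calls in WT TAMs compared with WT macrophages (11.5%), array weights gave 6 (17.9%), the fit without WT TAM 2 and KO TAM 1 gave 20 (18.3%), and the fit to 6 arrays gave 1 (11.4%). Against 1 call in KO TAMs compared with KO macrophages (6.53%), the filter on dim genes gave 2 (16.1%), array weights 5 (12.2%) and the fit without WT TAM 2 and KO TAM 1 gave 10 (9.68%). Against 1 call in KO compared with WT macrophages (11.3%), a second quantile normalization gave 2 (11.4%), an added 16 gave 3 (13.2%), the dim filter 3 (24.1%), trend and robust settings 2 (12.2%), array weights 6 (22.2%), the replicate block 2 (10.4%), the fit without WT TAM 2 and KO TAM 1 gave 12 (20.6%) and the fit to 6 arrays 19 (21.3%). Against 2 calls in KO compared with WT TAMs (12.2%), median centring gave 1 (12.2%), array weights 20 (21.3%, median -0.91), the fit without WT TAM 2 and KO TAM 1 gave 28 (20.2%, median -0.96) and the fit to 6 arrays 0 (2.88%). Against 0 calls in the interaction (0.194%), array weights gave 4 (3.43%, median -0.77) and the fit without WT TAM 2 and KO TAM 1 gave 21 (6.74%, median -0.90). Leaving out 1 array at a time gave 0 to 4, 0 to 1, 1 to 1, 1 to 9 and 0 to 1 calls in these 5 comparisons, and medians from -0.27 to 0.48, -0.31 to 0.25, -0.20 to -0.15, -0.71 to -0.022 and -0.53 to 0.22. Some members changed sign without WT TAM 2 and KO TAM 1 and were then called: in WT TAMs against WT macrophages Srebf2 (0.49), Fdps (0.91), Sqle (0.89) and Cyp51 (0.72); in KO against WT TAMs Insig1 (-1.04), Stard4 (-1.11), Pmvk (-0.92) and Tm7sf2 (-0.52); and in the interaction Srebf2 (-0.81), Hmgcs1 (-1.03), Pmvk (-0.97), Fdps (-1.63), Sqle (-1.24), Cyp51 (-1.60), Msmo1 (-1.05), Nsdhl (-0.85) and Hsd17b7 (-1.04). The cause was not tested. No 2 groups met the rule that every same-numbered pair should correlate over 0.1 over all genes, and the main fit did not pair the samples. These correlations cannot show whether the samples were paired when they were made. Deviations of same-numbered KO TAM and WT TAM arrays correlated at 0.271, 0.247 and 0.033 over all genes for numbers 1, 2 and 3, and at 0.814, 0.866 and -0.215 over the members. Arrays of different number in those groups correlated between -0.284 and 0.0705 over all genes, and KO TAM 3 correlated best with WT TAM 2. Over the members, arrays of different number lay between -0.889 and 0.716. The 0.716 was that of KO TAM 1 with WT TAM 3, so high member values were not particular to the same number. Same-numbered arrays of other pairs of groups lay between -0.056 and 0.020. The replicate block also called Elovl6 lower in KO against WT macrophages (-0.58, adjusted p = 0.0427, limma) and in KO against WT TAMs (-0.56, adjusted p = 0.0436), and lost Acss2 in TAMs (adjusted p = 0.0611). Dim members such as Acacb, and Scd1 on KO TAM 2 and 3, near the level where intensity carries little signal, limit what can be seen there.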
